A study of Rattus norvegicus with 9 samples.

Results

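In rat cortex after cerebral ischemia-reperfusion, 216 annotated transcripts had a level that was highest in untreated injured cortex, lowest in sham cortex and in between after dexmedetomidine. They were selected by the measured counts themselves, out of 44059 transcripts in the table and 18574 rat Ensembl transcripts with at least 10 counts in all 9 libraries. Counts were expressed as CPM, the count divided by the total counts of its library and multiplied by 1000000. A transcript was kept when all 3 Sham libraries lay below all 3 I/R + DEX libraries, all 3 I/R + DEX libraries lay below all 3 I/R libraries, the mean CPM in I/R was at least 2 times that in Sham, and the mean CPM in I/R was at least 1.3 times that in I/R + DEX. The 10 transcripts with the largest summed counts and 1 further transcript were left out. The order of the groups, the direction of each difference and the smallest size of the 2 ratios are therefore properties of the selection, and they are given below as a description without a test.

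RNA from the cortex was sequenced in 9 male Sprague-Dawley rats aged 7 to 8 weeks, 3 in each group, all anesthetized with isoflurane for surgery. Sham rats had their neck vessels separated and no wire inserted, while rats of the I/R group had the middle cerebral artery closed by a wire for 2 h (transient middle cerebral artery occlusion, tMCAO) and then reopened. Rats of the I/R + DEX group had the same occlusion and received 50 μg/kg of dexmedetomidine (DEX) into the peritoneum 30 min before it. Sham and I/R rats received saline in its place, and the cortex was taken 24 h after tMCAO, at the infarct site in the injured rats. The study's descriptions differ on whether DEX was also given after reperfusion. No group received DEX without ischemia, so DEX was read in injured cortex alone.

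When blood returns to ischemic cortex, injured neurons and glia, activated microglia and endothelium, and leukocytes that enter from the blood all change the RNA that the tissue yields. Genes of inflammation, cell stress and tissue remodelling are typical of the transcripts that are raised within a day of tMCAO. DEX is a sedative that activates α2-adrenergic receptors, which lower the release of noradrenaline from nerve endings, and it has been studied as a treatment that limits such injury. In whole tissue, fewer cells of a type and less RNA per cell cannot be told apart, and this holds for every level below.

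The tables used here paired 0 of the 40808 annotated transcripts, and so 0 of the 216 members, with a gene name. The members are therefore described by their levels, 2 of them by identifier and the others by their rank, and neither their functions nor the cell types they mark were analysed here.

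The libraries held 21691473 to 28600541 counts in Sham, 31234956 to 36039743 in I/R + DEX and 32479042 to 35092422 in I/R. Over the transcripts raised in I/R, a pair of libraries stood apart within their groups, and both bear on the members. Of 2550 annotated transcripts that met the Sham and I/R terms of the rule whatever their level in I/R + DEX, called raised transcripts below, I/R replicate 3 was the lowest I/R library in 75.5%, and I/R + DEX replicate 3 was the highest I/R + DEX library in 66.5%. I/R + DEX replicate 3 lay above I/R replicate 3 in 63.3% of the raised transcripts, above I/R replicate 1 in 31% and above I/R replicate 2 in 29.5%. Its counts were also spread differently, with 22.2% of them on the 11 transcripts left out of the selection. That part was 7.67% and 13.7% in the other I/R + DEX libraries, 11%, 17.6% and 11.9% in I/R replicates 1, 2 and 3, and 6.23% to 6.42% in Sham. I/R replicate 3 did not stand apart in this measure, nor in the chi-square per degree of freedom between I/R libraries. That was 58.3 for replicates 1 and 3, 78.2 for replicates 1 and 2, and 114 for replicates 2 and 3. Between I/R + DEX libraries it was 327 for replicates 1 and 3 and 177 for replicates 2 and 3. For I/R + DEX replicates 1 and 2 it was 102, so I/R + DEX replicate 3 stood apart in this measure too. The part of these library differences in the results below was not tested. The number of members, the median ratios, the share and the numbers called are also given without I/R replicate 3, I/R + DEX replicate 3 or both. The other measures are given with all 9.

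The steps of the selection show where the members sat among all raised transcripts. Every I/R library lay above every Sham library for 31.7% of the 18574 annotated transcripts with the count minimum, every I/R + DEX library lay below every I/R library for 8.69%, and every I/R + DEX library lay above every Sham library for 21.9%. Of the 2550 raised transcripts, 2153 had every I/R + DEX library above every Sham library. In 377 of the 2550 every I/R + DEX library lay below every I/R library, in 12 every one lay above, and in 2161 both groups overlapped. Both orders together held for 304, of which 88 missed the ratio of 1.3 and 216 were the members. A further 73 raised transcripts reached that ratio with every I/R + DEX library below every I/R library, but overlapped Sham or lay below it in at least 1 I/R + DEX library. Most raised transcripts thus had I/R + DEX libraries that overlapped I/R, and the members are among the minority for which they did not.

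The plot of both ratios for the raised transcripts places the members among them.

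**Figure D1:**
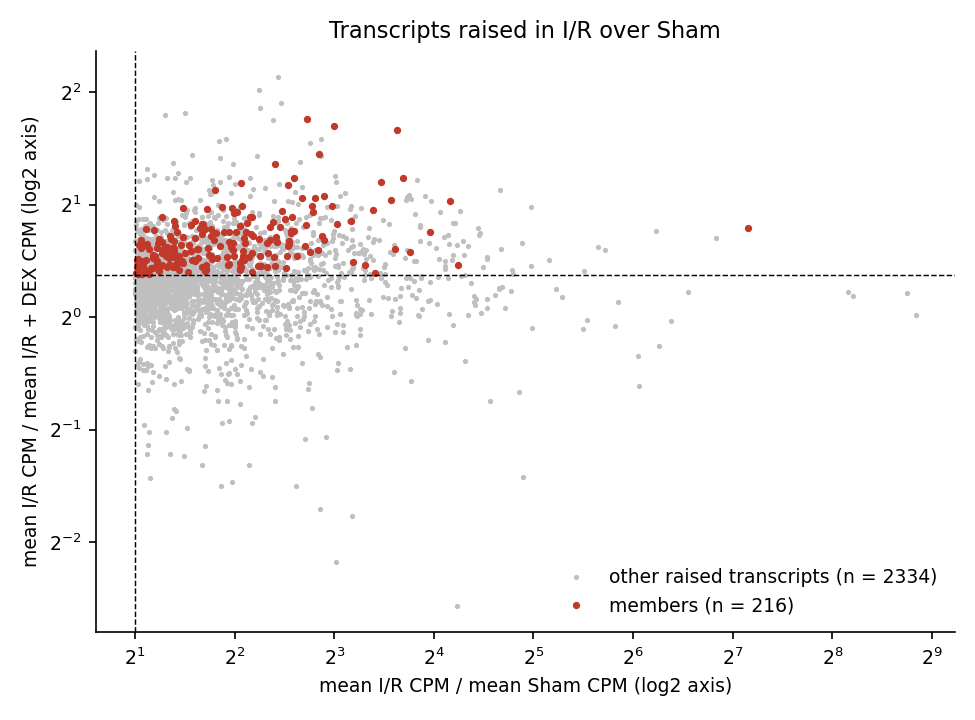
Each point is 1 annotated transcript raised in I/R over Sham. The horizontal axis is the ratio of mean I/R to mean Sham CPM and the vertical axis the ratio of mean I/R to mean I/R + DEX CPM, both on log2 axes, with the thresholds of 2 and 1.3 as dashed lines. The 216 members (red) lie above both thresholds, 16 of them at 2 or above on the vertical axis, amid 2334 other raised transcripts (grey), many of which also lie above 1.3 but had libraries out of order.

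The number of members was set beside the numbers that the same rule gives when the 3 I/R and 3 I/R + DEX labels are assigned to these 6 libraries in each of the 19 other ways. The labels as given yielded 216 transcripts. Of the other assignments, 18 yielded 7 to 102 transcripts, and 1, in which I/R replicate 3 and I/R + DEX replicate 3 exchanged labels, yielded 997. With both labels fully exchanged, so that I/R + DEX would lie above I/R, 9 transcripts met the rule. The number for the labels as given was therefore second among the 20, behind the assignment that exchanges the libraries that stood apart over the raised transcripts. Whether these 2 libraries carry the right labels was not tested. Every mean, ratio and share of I/R and I/R + DEX below takes the labels as given and would differ if they were exchanged.

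The same pair of libraries set the number of members when libraries were left out. Without I/R replicate 3 the rule was met by 870 transcripts, without I/R + DEX replicate 3 by 944, and without both by 1535. Without any other single library the number was 211 to 301. The order of the groups is easier to meet over fewer libraries, while the ratios of means can move either way. The 7 other libraries each moved the number by less than 1.5 times, and no other pair was left out to set beside the 1535. The rule was thus met by more transcripts over I/R replicates 1 and 2 and I/R + DEX replicates 1 and 2 than with either of the replicates numbered 3 included.

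**Figure D2:**
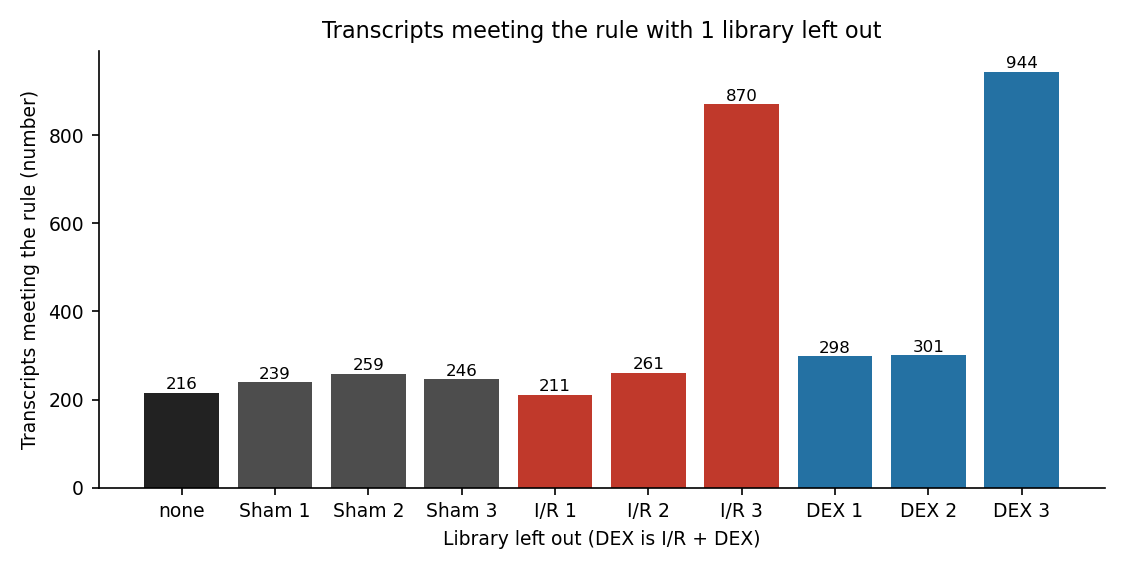
Bars give the number of transcripts that meet the rule with all libraries (none left out, 216) and with each library left out in turn, named on the horizontal axis by group and replicate. The bars without I/R replicate 3 (870) and without I/R + DEX replicate 3 (944) stand above the others, which run from 211 to 301.

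The members were of modest abundance. Their mean CPM over the 9 libraries ran from 1.05 to 490 with a median of 7.43, against a median of 12.9 for the raised transcripts and 15.7 for all 18574 transcripts with the count minimum. In I/R, 16 members had a mean of at least 100 CPM and 87 had less than 10. The lowest count of each member was in a Sham library, with a median of 62 counts, and for 35 members it was under 20 counts. Together the members took 0.255% ± 0.00886 of all Sham counts, 0.537% ± 0.02 of all I/R + DEX counts and 0.792% ± 0.095 of all I/R counts, given as mean and SD over 3 rats.

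The rise over Sham differed widely between members. The ratio of mean I/R to mean Sham CPM had a median of 3.34, quartiles of 2.54 and 5.07 and a highest value of 143, and it was at least 3 in 129 members, at least 5 in 57 and at least 10 in 12. In I/R + DEX the ratio to Sham had a median of 2.12, and 119 members were at least 2 times their Sham level there. The difference between I/R and I/R + DEX was smaller than the rise, which the rule fixes by placing I/R + DEX above Sham. The ratio of mean I/R to mean I/R + DEX CPM had a median of 1.52 with quartiles of 1.42 and 1.7, and reached at least 1.5 in 121 members, at least 2 in 16 and at least 3 in 3. Over all 18574 transcripts its median was 1.06, and over the raised transcripts, themselves selected for a high level in I/R, 1.26. Without I/R replicate 3 and I/R + DEX replicate 3 the medians over the members were 3.51 for I/R to Sham, 2.03 for I/R + DEX to Sham and 1.67 for I/R to I/R + DEX, and the last was 1.55 over the raised transcripts.

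The position of I/R + DEX between the other groups was expressed as the share of the rise from Sham to I/R that was present in I/R + DEX, with 0% at the Sham mean and 100% at the I/R mean. Over the members its median was 49.4%, with quartiles of 41.5% and 56.1% and a range from 17% to 73.6%. In 115 members it was under 50% and in 7 under 25%. By library, the median over members was 43.8% in I/R + DEX replicate 1, 47.7% in replicate 2 and 56.4% in replicate 3. Without both replicates numbered 3 the median was 42.5%. Over the raised transcripts, also selected for a high level in I/R, the median share was 68.9%. Since the ratio of 1.3 sets the highest share a member can have, this difference from the raised transcripts follows from the selection.

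Members with a larger rise had a somewhat larger share. In the 72 members with the smallest rise, 2.01-fold to 2.66-fold over Sham, the median share was 46.1%. In the middle 72 it was 50.2%, and in the 72 with the largest rise, 4.28-fold to 143-fold, it was 51.5%. The highest share that the rule allows rose in the same order, with medians of 59.9%, 67% and 72.2%, so no trend beyond the rule is read from these values.

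The 10 most abundant members show the pattern library by library. The most abundant was ENSRNOT00000014359, at 250, 200 and 263 CPM in Sham replicates 1, 2 and 3, 499, 552 and 484 in I/R + DEX, and 763, 780 and 622 in I/R. Its means were 238 ± 33.4 CPM in Sham, 512 ± 35.7 in I/R + DEX and 722 ± 86.6 in I/R (SD over 3 rats), so that I/R was 3.03 times Sham and 1.41 times I/R + DEX. The lowest I/R library, replicate 3, was 1.13 times the highest I/R + DEX library, replicate 2, with an exact 95% interval of 1.11 to 1.15 for counting error. This interval comes from 20202 and 19892 reads and does not cover the spread between rats. The rule sets this ratio above 1 in every member, and the 2 libraries are the extremes of their groups. Here and below, counting intervals therefore describe depth and do not test the difference between I/R and I/R + DEX.

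The second most abundant member was at 148, 138 and 160 CPM in Sham, 248, 330 and 359 in I/R + DEX, and 491, 459 and 381 in I/R. Here both replicates numbered 3 lay close together, 381 CPM in I/R against 359 in I/R + DEX. The third was at 185, 184 and 192 CPM in Sham, 292, 299 and 211 in I/R + DEX, and 481, 334 and 325 in I/R, with I/R + DEX replicate 3 the nearest of its group to Sham. The fifth had the same feature, at 104, 118 and 118 CPM in Sham, 190, 213 and 148 in I/R + DEX, and 325, 232 and 263 in I/R.

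Of the remaining members among the 10 most abundant, the ninth had the largest rise. It was at 34.6, 29.1 and 34.4 CPM in Sham, 133, 133 and 149 in I/R + DEX, and 195, 205 and 163 in I/R, which is 5.73 times Sham and 1.36 times I/R + DEX, with a share of 68.2%. The seventh was close to it in shape, at 60.8, 53.8 and 46.1 CPM in Sham, 183, 165 and 146 in I/R + DEX, and 232, 234 and 204 in I/R. In all 10 the ratio of I/R to I/R + DEX lay between 1.36 and 1.51. I/R replicate 3 was the lowest I/R library in 9 of them, and I/R replicate 2 in the fifth.

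**Figure D3:**
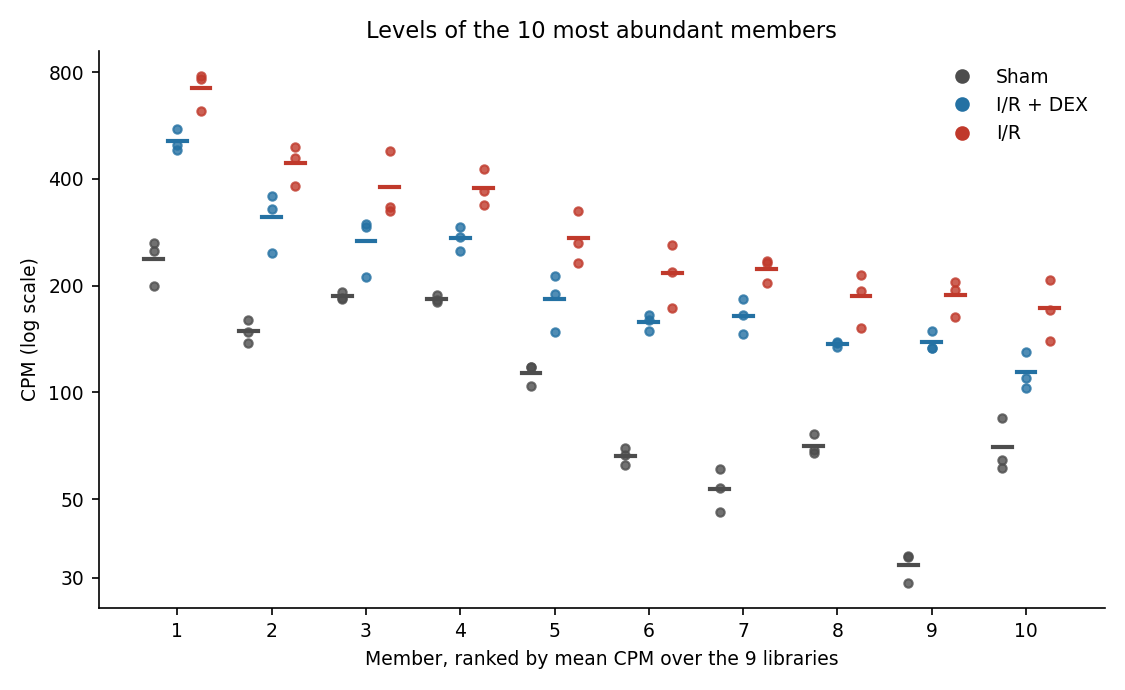
For each of the 10 most abundant members, ranked on the horizontal axis by mean CPM over the 9 libraries, points give the CPM of each rat on a log axis and short lines the group means, for Sham (dark grey), I/R + DEX (blue) and I/R (red). The most abundant member had means of 238, 512 and 722 CPM, and in several members the lowest I/R point and the highest I/R + DEX point nearly touch.

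In the members with the 3 largest ratios of I/R to I/R + DEX, the libraries of I/R or of I/R + DEX spread widely. ENSRNOT00000050037 had the largest, 3.38, with 1.53, 2.03 and 2.94 CPM in Sham, 4, 4.41 and 4.27 in I/R + DEX, and 4.96, 13.6 and 24.4 in I/R. Its mean in I/R was 14.3 ± 9.72 CPM (SD, n = 3 rats) against 4.23 ± 0.208 in I/R + DEX and 2.17 ± 0.711 in Sham, and its share of 17% was the lowest of all members. Its lowest I/R library, here replicate 1 with 174 reads, was 1.12 times the highest I/R + DEX library, with an exact 95% interval for counting error of 0.901 to 1.4. The ratio of the means thus rested on I/R replicates 2 and 3. With both replicates numbered 3 left out the ratio was 2.21.

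The member with the second largest ratio, 3.25, was at 1.5, 2.07 and 1.96 CPM in Sham, 4.83, 2.22 and 6.51 in I/R + DEX, and 24.7, 11.6 and 7.7 in I/R. Its high I/R library was replicate 1, while in ENSRNOT00000050037 it was replicate 3, so the rats with the highest level differed between these members. The member with the third largest ratio, 3.16, was at 2.52, 3.27 and 2.31 CPM in Sham, 5.09, 6.49 and 20.1 in I/R + DEX, and 36.2, 24.3 and 39.7 in I/R. In it I/R + DEX replicate 3 lay nearer to I/R replicate 2 than to the other I/R + DEX libraries. Of the 16 members with a ratio of at least 2, the gap between the lowest I/R and the highest I/R + DEX library exceeded counting error in 10.

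The largest rise over Sham belonged to a transcript that was nearly absent from sham cortex. It had 12, 11 and 13 reads in Sham replicates 1, 2 and 3 (0.439, 0.507 and 0.455 CPM), 48.8, 27.2 and 39.3 CPM in I/R + DEX, and 90.2, 50.1 and 59.5 CPM in I/R. Its mean in I/R was 143 times that in Sham and 1.73 times that in I/R + DEX. I/R replicate 2 at 50.1 CPM and I/R + DEX replicate 1 at 48.8 CPM differed by less than counting error. The next largest rise, 18.9-fold, was of a member at 0.548, 0.553 and 0.664 CPM in Sham, 8.39, 6.1 and 9.68 in I/R + DEX, and 11, 11.5 and 10.9 in I/R, whose I/R libraries were close together. In the third, at 28.9, 37.5 and 40.4 CPM in I/R and 6.85, 18.4 and 26.8 in I/R + DEX, Sham replicate 2 at 4.43 CPM stood above the other Sham libraries at 0.694 and 0.839. Of the 12 members with at least a 10-fold rise, the gap between I/R and I/R + DEX exceeded counting error in 3.

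The widest gap between I/R and I/R + DEX was in a member at 1.28, 1.48 and 1.43 CPM in Sham, 2.37, 3.02 and 3.26 in I/R + DEX, and 9.97, 6.58 and 5.6 in I/R, whose lowest I/R library was 1.72 times its highest I/R + DEX library (exact 95% interval for counting error 1.35 to 2.2). The second widest gap was 1.52 (1.22 to 1.9). In that member the lowest I/R + DEX library, at 3.08 CPM, nearly touched the highest Sham library, at 3.01. The third widest, at 18.8, 11.2 and 17.3 CPM in Sham, 30.3, 30.7 and 24.2 in I/R + DEX, and 55.6, 48.9 and 46.2 in I/R, had a gap of 1.51 (1.39 to 1.63). In the member with the widest gap the I/R libraries themselves spread from 5.6 to 9.97 CPM, further than the gap. In the third all 3 I/R libraries lay within 46.2 to 55.6 CPM and all 3 I/R + DEX libraries within 24.2 to 30.7.

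Over all members the gap was narrow. The lowest I/R library was a median of 1.11 times the highest I/R + DEX library, with quartiles of 1.06 and 1.21, and the exact 95% counting interval of this ratio excluded 1 in 80 of the 216. Since the rule sets this ratio above 1 in every member, these counts are a description and not a test. The gap was under 1.1 in 94 members, of which 14 exceeded counting error, and at least 1.3 in 25, of which 22 did. Depth mattered here: the gap exceeded counting error in 16 of the 16 members with at least 100 CPM in I/R and in 16 of the 87 with less than 10. Between I/R + DEX and Sham the separation was wider, with the lowest I/R + DEX library at a median of 1.49 times the highest Sham library. Without both replicates numbered 3 the median gap between I/R and I/R + DEX was 1.39.

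At the thresholds, the members with the smallest rise had ratios of I/R to Sham of 2.01 and 2.027, and the nearest transcripts that met every other term had 1.996 and 1.986. The members nearest the other threshold had ratios of I/R to I/R + DEX of 1.304, and the nearest transcripts outside it had 1.298 and 1.297. The members thus ran on without a break into the 52 and 88 transcripts that missed these terms alone.

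Many members shared the order of the rats. I/R replicate 1 was the highest I/R library in 64.8% of the members and replicate 3 the lowest in 69%, where over the raised transcripts these were 49.7% and 75.5%. I/R + DEX replicate 3 was the highest of its group in 54.6% of the members and replicate 1 the lowest in 47.7%. The replicates numbered 3 set the boundary on at least 1 side in 182 members and on both sides in 85. In Sham no library led, with replicates 1, 2 and 3 the highest in 67, 78 and 71 members.

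Relative to the Sham mean, the median level over the members was 3.68-fold, 3.4-fold and 2.95-fold in I/R replicates 1, 2 and 3, and 1.96-fold, 2.02-fold and 2.32-fold in I/R + DEX replicates 1, 2 and 3. The raised transcripts were selected for a high level in I/R, though not for their level in I/R + DEX. Over them these medians were 3.33-fold, 3.21-fold and 2.5-fold in I/R and 2.11-fold, 2.22-fold and 2.84-fold in I/R + DEX. There I/R + DEX replicate 3 lay above I/R replicate 3, while over the members the rule itself sets it below.

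**Figure D4:**
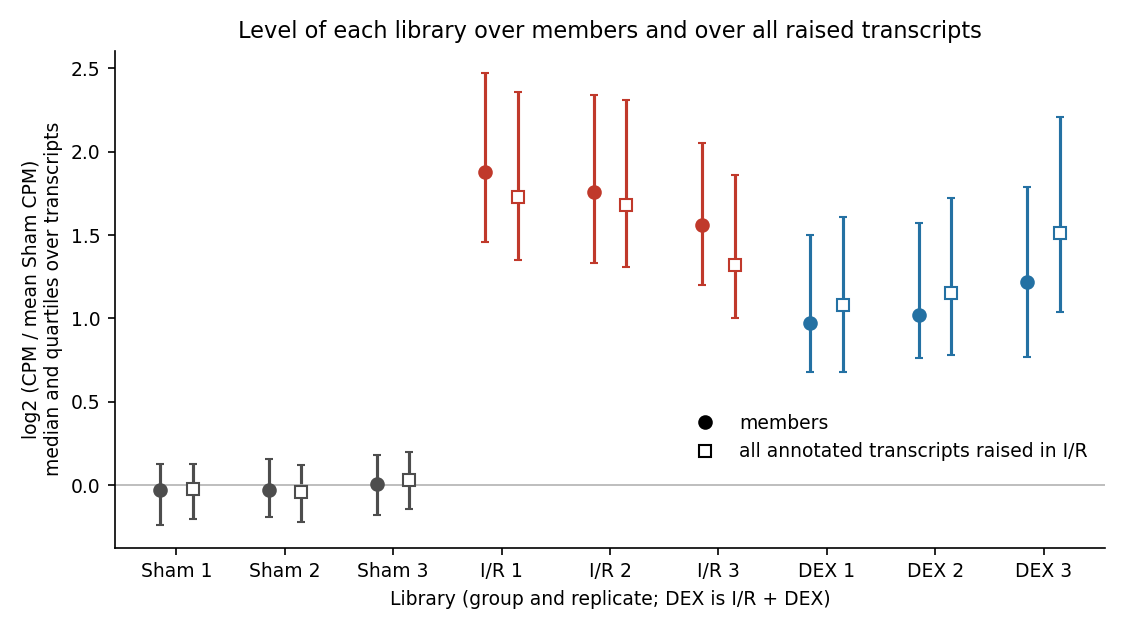
For each library on the horizontal axis, the log2 ratio of CPM to the mean Sham CPM is given as median and quartiles, over the 216 members (filled circles) and over the 2550 raised transcripts (open squares). I/R + DEX replicate 3 is the highest I/R + DEX library and I/R replicate 3 the lowest I/R library in both sets. Their medians are 1.22 and 1.56 over members, where the rule fixes their order, and 1.51 and 1.32 over raised transcripts, where it does not.

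The coefficient of variation, the SD divided by the mean, had a median over members of 18.2% in Sham, 16.2% in I/R + DEX and 15.9% in I/R. Over the raised transcripts these were 17.8%, 29.4% and 21.4%, and over all transcripts with the count minimum 11.3%, 23.9% and 16.9%. In Sham the members thus spread about as much as the raised transcripts and more than all transcripts, and in I/R + DEX less than both. The rule used this spread, since it asks that the groups do not overlap, and nothing is read from the difference.

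The way libraries are scaled decided which transcripts were members. Scaling by edgeR's TMM method, which sets libraries level over the bulk of the transcripts and not by their totals, raised the CPM of I/R + DEX replicate 3 most, since its effective size was 0.88 times its total, against 0.943 and 1.04 times in I/R + DEX replicates 2 and 1 and 0.971 to 1.06 times in I/R. With TMM the rule was met by 106 transcripts, of which 94 were among the 216. Of the members, 104 lost the order of I/R + DEX below I/R, with I/R + DEX replicate 3 the highest of its group in 88 of these, and 48 fell under the ratio of 1.3, with some members in both counts. The most abundant and the fifth most abundant members met the rule under both scalings, and the other 8 of the 10 did not. Of the 25 members with a gap of at least 1.3, 24 met it under TMM, and of the 94 with a gap under 1.1, 10 did. Of the 16 members with at least 100 CPM in I/R, 5 met the rule under TMM, and of the 87 with less than 10 CPM, 44 did. The median ratio of I/R to I/R + DEX over all 216 was 1.42 with TMM. TMM moved the median log2 ratio over all transcripts with the count minimum from 0.0799 to -0.0133. With TMM, 2 of the other 19 label assignments yielded more than the 106, at 128 and 1176.

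In the fits across all transcripts, members were counted beside the share called among all transcripts tested. The rule used each of these contrasts, so nothing is read from the counts. Of the 216 members, 214 were higher in I/R than in Sham at an adjusted p under 0.05 (quasi-likelihood test of edgeR, Benjamini-Hochberg), where 22.4% of all 25777 transcripts tested were, and 216 at the study's cutoff (log2 fold change past 0.8 and unadjusted p under 0.05), where 18.7% were. Their median log2 fold change was 1.74, and that of all transcripts tested was 0.03.

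For I/R + DEX against I/R, 0 members were lower at an adjusted p under 0.05 (edgeR), where 0.0% of all 25860 transcripts tested were, and the smallest adjusted p of any transcript was 0.359. At an unadjusted p under 0.05, 62 members were lower, where 1.94% of all transcripts were, and at the study's cutoff 22 members were, where 1.19% were. With DESeq2's Wald test 1 member was lower at an adjusted p under 0.05, where 0.155% of all transcripts were. The median log2 fold change of the members was -0.50, and that of all transcripts tested was 0.01. Scaled by total counts, as in the choice of the members, the number at the study's cutoff was 45. The leave-one-out fits used TMM, with which the number was 22 over all libraries. With TMM the number was 49 without I/R + DEX replicate 3 and 33 without I/R replicate 3. It was 8 without I/R replicate 1, 11 without I/R replicate 2, 10 without I/R + DEX replicate 1 and 8 without I/R + DEX replicate 2. The share called among all transcripts is not given for total counts or with libraries left out. Whether these shifts were particular to the members therefore cannot be told.

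For I/R + DEX against Sham, 136 members were higher at an adjusted p under 0.05 (edgeR), where 11.7% of all 25283 transcripts tested were, and 168 at the study's cutoff, where 14.3% were, with a median log2 fold change of 1.19 over the members and 0.02 over all. The first number was 35, 36 and 35 without Sham replicates 1, 2 and 3, and 142, 69 and 116 without I/R + DEX replicates 1, 2 and 3. The share called among all transcripts with a library left out is not given, so these shifts are not read as particular to the members. These comparisons share libraries with those above and are not independent of them.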

How the data were processed

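The authors deposited unnormalized counts of reads for each transcript in 9 rat cortex libraries, 3 rats per group, grouped by their titles. Row identifiers are rat Ensembl transcripts and assembled transcripts. Per the submitters' processing notes, STAR 2.5.3a, StringTie 1.3.1 and the build rn6 were used, while the methods name a mouse build and CLC Genomics Workbench. How reads shared between transcripts of a locus were divided is not given in the sources used here, so single transcripts of overlapping or near-identical loci are uncertain.

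CPM were computed from the library totals (Python 3.11.15, pandas 2.3.3). Fits across all transcripts used R 4.3.3 and edgeR 4.0.16 (filterByExpr, TMM, quasi-likelihood test, 6 libraries per comparison) with DESeq2 1.42.0 as an alternative, and were tested on simulated counts. Counting intervals are exact binomial at 95% and cover counting error only. They take reads as independent, while amplified reads are not independent molecules, so the intervals may be too narrow. Libraries of a group all differed by more than sampling noise, the chi-square per degree of freedom being 25.8 to 327. The 2 members given by identifier are those with the highest mean CPM and with the largest ratio of I/R to I/R + DEX, and the others were named by rank. The members and comparisons were chosen with earlier results of these data known.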

Additional observations from a re-analysis of the deposited data

How the results depend on the processing

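The number of members was 216 and moved by more than 1.5 times under TMM sizes (106), RLE sizes (87), no count minimum beyond a total above 0 (367), a ratio of I/R to I/R + DEX of at least 1.5 (117) and a ratio of I/R to Sham of at least 3 (129). It ranged from 211 to 944 with each library left out in turn and was 1535 without both replicates numbered 3, an alternative chosen after seeing the data, as was scaling without the 10 largest transcripts (183); the median ratios without both were also added then. The median share of the rise present in I/R + DEX, 49.4%, was 63.3% on the log2 scale, 56.8% with TMM sizes, 57.3% with RLE sizes and 42.5% without both replicates numbered 3, and 45.4% to 53.4% with each library left out. Members called in I/R against Sham ranged from 200 to 212 at an adjusted p and from 214 to 216 at the study's cutoff with each library left out. In I/R + DEX against I/R, members called at an adjusted p were 0 with each library left out and 1 with DESeq2, and at the study's cutoff they were 45 with total counts alone and 8 to 49 with each library left out. In I/R + DEX against Sham they were 35 to 142 at an adjusted p and 139 to 170 at the study's cutoff with each library left out. The cause of these shifts was not tested. The share called among all transcripts is not given with total counts alone or with libraries left out. Shifts of the numbers called are therefore not read as particular to the members.

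Same-numbered libraries had correlations of their deviations from the group means between -0.474 and 0.074 over 20800 transcripts, with no clear positive correlation by replicate number. The lowest was between I/R and I/R + DEX replicates 3. Whether same-numbered rats were handled together is not given in the sample titles, and these values cannot decide it. With the replicate block, members past the study's cutoff were 11 in place of 22 between I/R + DEX and I/R, and members called at an adjusted p in I/R + DEX against Sham were 58 in place of 136. The block moved the other 4 counts by less than 1.5 times. The share called among all transcripts with the block is not given, so these shifts are not read as particular to the members. Depth limits the members under 10 CPM in I/R, where counting error covered most gaps between I/R and I/R + DEX.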

Other observations

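Predicted lncRNA were not eligible as members, but 38 of the 2226 with at least 10 counts in all 9 libraries (1.71%) met the same rule, in 36 loci, against 1.16% of the annotated transcripts. Their median ratio of I/R to Sham was 3.09, that of I/R to I/R + DEX was 1.62, and their median share of the rise present in I/R + DEX was 41.1%. With TMM sizes, 21 of the 38 met the rule. These are values with no test, since the rule chose them from the same counts.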
